A study of Mus musculus with 30 samples.

Results

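Glucocorticoids are the steroid hormones of the adrenal cortex, and a small number of genes rise in most tissues when they bind their receptor. The 10 genes described here, Fkbp5, Tsc22d3, Per1, Zbtb16, Klf9, Klf15, Cebpd, Sgk1, Ddit4 and Pik3r1, were chosen by gene symbol as such hormone-responsive genes. All 10 were found among the 36103 genes of the count table, each under 1 Ensembl identifier, and each was tested in every tissue. The table held 30 RNA-seq libraries from mice of 5 weeks on a pure 129Pas background. Hemizygous Mtm1-/y mice have no functional myotubularin, a phosphatase of phosphoinositides, in any tissue and model X-linked myotubular myopathy. They were compared with wild-type (WT) littermates. The gastrocnemius and the heart each had 4 WT and 4 Mtm1-/y libraries, the diaphragm 4 WT and 3 Mtm1-/y, and the liver 3 WT and 4 Mtm1-/y. RNA came from whole organs, so fewer cells of a type and less RNA per cell cannot be told apart. It was not stated whether tissues with the same number came from the same mouse, so p-values measure the spread between libraries. The hour of dissection and the blood level of corticosterone, the main glucocorticoid of the mouse, were not given for these libraries in the sources used here.

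The hormone crosses the cell membrane and binds the glucocorticoid receptor (Nr3c1), which is held in the cytoplasm by heat shock proteins and immunophilins. The receptor then enters the nucleus and binds, as a dimer, a palindromic DNA element near its target genes. Secretion follows the day and night cycle and rises in stress and fasting. In skeletal muscle the hormone slows protein synthesis, favours protein breakdown and releases amino acids, in liver it raises glucose production, and in many cells it restrains inflammatory genes.

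The promoters of the members were read first, because the members share a hormone and not a sequence family. RefSeq (GRCm38.p6, the assembly of the mm10 build used for the counts) gave 17 promoter entries for 8 members, and Zbtb16 and Cebpd had none. The 250 bases before each start were searched on both strands. The full palindrome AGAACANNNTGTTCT was found in 1 member entry, an internal start of Sgk1, and in 0.00913% of all 32851 promoter entries. The looser core GNACANNNTGTNC was found in the same entry, which it shares with the full palindrome, and in 0.387% of all entries. The 6-base arm AGAACA, which also lies inside the full palindrome, was found in 4 member entries, of Sgk1 and Tsc22d3, and in 16.1% of all entries. The E-box CACGTG, the letters bound by the clock proteins, was found once each in entries of Sgk1, Per1 and Fkbp5, at 2 places in that of Klf15, and in 6.02% of all entries. The cAMP response element TGACGTCA was found in 0 member entries and in 1.55% of all entries. The letters GTAAACA, bound by FoxO proteins, were found in the Klf9 entry and in 3.17% of all entries. These matches are descriptions of letters in a short window.

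Stretches before the start of 4 members are shown 5′ to 3′ on the strand of the gene, left to right toward the start. Sgk1 was chosen for the palindrome, and Tsc22d3, Klf15 and Ddit4 were chosen because they are the members whose level differed between genotypes over the 4 tissues. Bases that the GENCODE annotation counts as exon were left out. The Sgk1 stretch (chr10:21993640-21993889, plus strand) lies inside the gene, in an intron of its longer transcripts, and its capitals mark the full palindrome, which begins 189 bases before the start. The Tsc22d3 stretch (chrX:140600660-140600772, minus strand) holds a single arm in capitals, written as its reverse complement and beginning 185 bases before the start. The Klf15 stretch (chr6:90462326-90462575, plus strand) has both E-boxes in capitals, 228 and 172 bases before the start. The Ddit4 stretch (chr10:59951835-59952020, minus strand) held no match to any of the 6 motifs searched and has no capitals.
Sgk1: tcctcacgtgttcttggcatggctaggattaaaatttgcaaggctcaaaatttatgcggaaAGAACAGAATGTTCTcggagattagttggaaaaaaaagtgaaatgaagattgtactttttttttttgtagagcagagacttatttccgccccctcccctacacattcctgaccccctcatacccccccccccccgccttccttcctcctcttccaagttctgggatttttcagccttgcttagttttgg
Tsc22d3: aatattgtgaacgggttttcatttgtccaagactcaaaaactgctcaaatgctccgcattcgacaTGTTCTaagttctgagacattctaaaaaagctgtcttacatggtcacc
Klf15: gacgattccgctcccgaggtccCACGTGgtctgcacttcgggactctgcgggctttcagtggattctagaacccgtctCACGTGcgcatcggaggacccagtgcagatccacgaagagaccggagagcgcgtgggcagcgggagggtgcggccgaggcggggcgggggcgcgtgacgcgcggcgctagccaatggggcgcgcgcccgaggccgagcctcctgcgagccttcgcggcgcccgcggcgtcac
Ddit4: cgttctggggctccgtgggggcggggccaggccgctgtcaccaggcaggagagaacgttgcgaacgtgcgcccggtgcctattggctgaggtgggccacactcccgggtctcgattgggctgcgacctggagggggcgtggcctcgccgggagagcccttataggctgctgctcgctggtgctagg

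Libraries held 24873817 to 44289343 counts. Levels are given as CPM, the count scaled to library size after TMM normalisation for library composition. Mtm1 itself was at 15.9 to 26.9 CPM in the 15 WT libraries and at 3.49 to 8.19 CPM in the 15 Mtm1-/y libraries, without overlap. Markers of skeletal muscle, heart muscle and hepatocytes were highest in the tissues labelled so, but 4 diaphragm libraries (WT 1, 2 and 4 and Mtm1-/y 2) also held hepatocyte markers at summed levels of 20530 to 38260 CPM, against 368.6 to 2276 CPM in the other 3. In the gastrocnemius, where 29.0% of all genes had an edgeR adjusted p under 0.05, 6 of 6 macrophage and leukocyte markers rose. Their summed levels were 180.7 to 234 CPM in Mtm1-/y against 41.3 to 65.2 CPM in WT. Of 6 white adipocyte markers 5 rose in the gastrocnemius, with sums of 80.9 to 169.4 CPM in Mtm1-/y against 20.7 to 97.5 CPM in WT. In the heart their sums were 4.70 to 12.0 CPM in Mtm1-/y against 29.9 to 111.4 CPM in WT. Skeletal muscle markers fell in the gastrocnemius, 6 of 6, to sums of 137300 to 155100 CPM against 230200 to 277200 CPM in WT. Of 6 fibroblast markers 4 rose in the gastrocnemius, with sums of 2923 to 6362 CPM against 2231 to 4903 CPM in WT. In the diaphragm 0 of 6 fibroblast markers passed, and their sums were 3414 to 6834 CPM in Mtm1-/y and 1645 to 3288 CPM in WT, without overlap. In the heart 0 of 6 hepatocyte markers passed, and their sums were 35.9 to 112.3 CPM in Mtm1-/y and 1.60 to 31.1 CPM in WT, without overlap. No marker of these lists was at 0 in the groups named, and the part of other cell types in the results was not tested except where a value without the libraries is given.

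In each tissue more of the 10 members had a lower than a higher mean in Mtm1-/y mice. The log2 fold change was below 0 for 8 of them in gastrocnemius (48.2% of all genes tested), for 9 in diaphragm (51.8%), for 9 in heart (50.3%) and for 7 in liver (48.9%). The median over the members was -0.30, -0.25, -0.38 and -0.48 in the same order, where the median of all genes was 0.02, -0.01, 0.00 and 0.01. Among the 9 in diaphragm, Sgk1 (-0.0006) and Pik3r1 (-0.008) lay close to 0, and DESeq2 put them above 0 (0.0153 and 0.00335). In all, 6 of the members, Fkbp5, Tsc22d3, Per1, Zbtb16, Klf15 and Ddit4, were below 0 in each of the 4 tissues, as were 7.74% of the 12610 genes tested in all 4. Each tissue was then fitted on its own (edgeR, quasi-likelihood F test), with p-values adjusted after Benjamini and Hochberg over all its genes. At an adjusted p under 0.05, 1 member passed in the gastrocnemius, Klf9, where 29.0% of 15456 genes passed. No member passed in diaphragm (0.0119% of genes), heart (0.00656%) or liver (0%). At an unadjusted p under 0.05 the members numbered 4 of 10 for gastrocnemius (41.6% of genes), 2 for diaphragm (10.8%), 5 for heart (8.88%) and 3 for liver (4.24%). DESeq2 called Klf9 in gastrocnemius (13.3% of genes lower), Tsc22d3 in diaphragm (0.670%), Klf15 in liver (0.130%) and no member in heart (0.352%). The mean of the 4 genotype effects was tested next, which does not test whether the tissues share a direction.

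**Figure D1:**
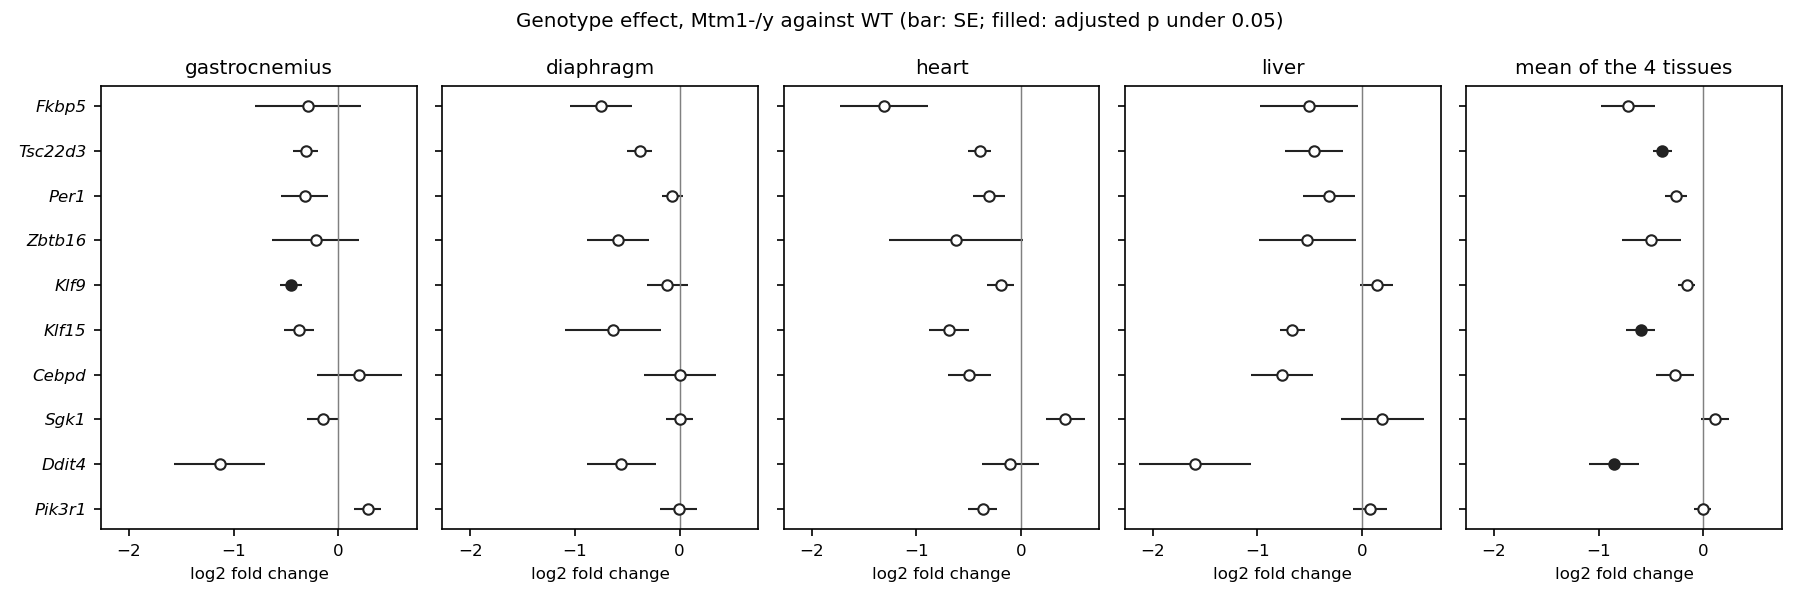
Log2 fold change of each of the 10 genes in Mtm1-/y against WT (x axis) in the gastrocnemius, diaphragm, heart and liver and as the mean of the 4 tissues. Bars are standard errors, filled points have an adjusted p under 0.05, and most points lie left of 0, with Klf9 filled in the gastrocnemius and Tsc22d3, Klf15 and Ddit4 filled in the mean.

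Averaged with equal weight over the 4 tissues in 1 edgeR fit of all 30 libraries, 3 members fell in Mtm1-/y mice, Klf15, Tsc22d3 and Ddit4, and 0 rose. Over all 18498 genes, 2.02% were called lower and 2.77% higher. The members' median was -0.33 and that of all genes was 0.00, and 9 of 10 members were below 0 against 50.9% of genes. Of the others, Fkbp5 had a mean log2 fold change of -0.72 (SE 0.259, adjusted p = 0.11), Zbtb16 of -0.50 (adjusted p = 0.35), Cebpd of -0.27 (adjusted p = 0.47), Per1 of -0.26 (adjusted p = 0.17), Klf9 of -0.16 (adjusted p = 0.29), Pik3r1 of -0.01 (adjusted p = 1) and Sgk1 of 0.11 (adjusted p = 0.75). DESeq2 on the same contrast also called Fkbp5, at an adjusted p of 0.044, where it called 4.12% of genes lower. Averages over 3 tissues were computed as well. Without the gastrocnemius 0 members passed (0.0557% of genes lower), with mean log2 fold changes of -0.41 for Tsc22d3, -0.66 for Klf15 and -0.75 for Ddit4. The members that passed were Klf15 alone without the diaphragm (0.793%), Ddit4 alone without the heart (2.73%), and Klf15, Tsc22d3 and Klf9 without the liver (5.25%). A fit without the 4 diaphragm libraries rich in hepatocyte markers kept a single WT diaphragm library. Its calls (1.68% of genes lower) therefore cannot show whether the falls of the members hold without liver RNA.

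**Figure D2:**
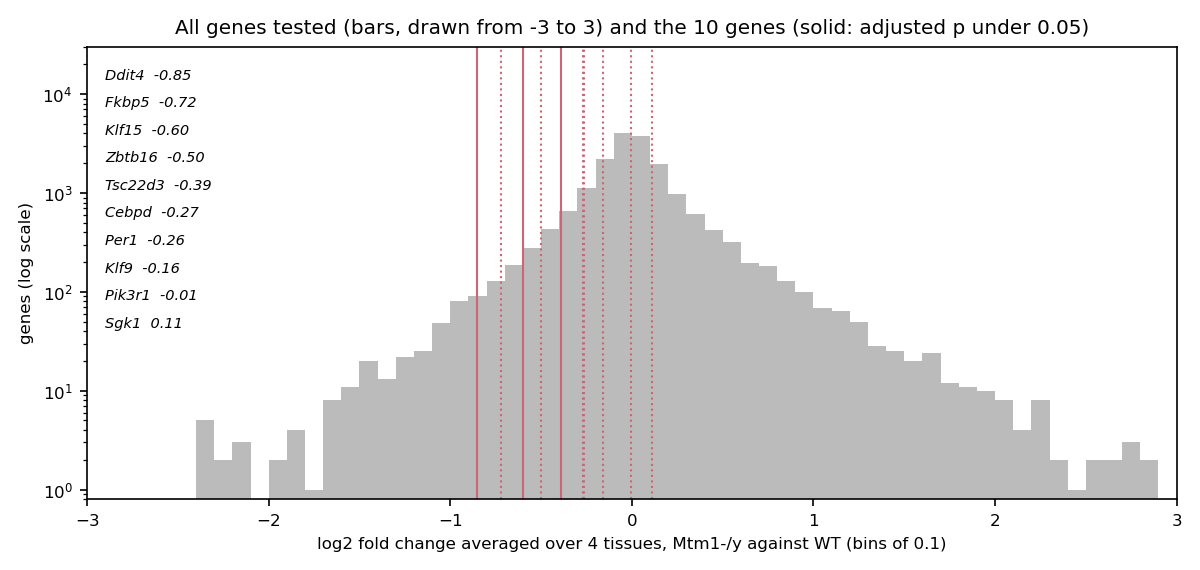
Number of genes (y axis, log scale) by log2 fold change averaged over the 4 tissues, Mtm1-/y against WT (x axis, bins of 0.1, drawn from -3 to 3), with a red line at each of the 10 genes, solid where the adjusted p is under 0.05. The lines run from Ddit4 at -0.85 to Sgk1 at 0.11, and 9 of the 10 lie below 0.

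Klf15 is a Krüppel-like transcription factor that the hormone induces in muscle and liver and that drives genes of amino acid breakdown (mm10 chr6:90462576-90475238, plus strand). In the liver it was at 310, 293 and 343 CPM in the 3 WT libraries and at 216, 173, 192 and 217 CPM in the 4 Mtm1-/y libraries. Every Mtm1-/y liver lay below every WT liver, as did 3.33% of genes, with a log2 fold change of -0.67 (SE 0.119, edgeR adjusted p = 0.50; DESeq2 adjusted p = 0.0012). In the heart it was at 42.7, 45.9, 60.0 and 59.4 CPM in WT and at 33.4, 43.3, 23.5 and 29.8 CPM in Mtm1-/y, where 1 Mtm1-/y heart lay just above the lowest WT heart. The heart log2 fold change was -0.69 (SE 0.189, adjusted p = 0.55). In the gastrocnemius the levels were 26.7, 30.0, 32.1 and 35.3 CPM in WT and 24.7, 20.5, 19.3 and 30.2 CPM in Mtm1-/y (-0.38 in log2, SE 0.142, adjusted p = 0.071). In the diaphragm they were 113, 82.1, 74.7 and 125 CPM in WT and 31.5, 112 and 42.9 CPM in Mtm1-/y (-0.64 in log2, SE 0.46, adjusted p = 0.71). The diaphragm libraries with most hepatocyte markers were those 4 with the highest Klf15, from 82.1 to 125 CPM, and the mean was 315 CPM in WT liver against 98.8 CPM in WT diaphragm. The part of hepatocyte RNA in the diaphragm values was not tested within that tissue. Averaged over the tissues Klf15 fell by 0.60 on the log2 scale (SE 0.138, adjusted p = 0.012), to 0.66 of the WT level. Leaving out any 1 of the 30 libraries kept this call, with adjusted p from 3.7e-05 to 0.028. Without the 4 liver-rich diaphragm libraries the mean was -0.67. That fit kept a single WT diaphragm library, so its p-value is not given. Klf15 did not pass without the gastrocnemius (-0.66, adjusted p = 0.24) or without the heart (-0.57, adjusted p = 0.052).

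Tsc22d3 encodes GILZ, a leucine zipper protein that carries part of the anti-inflammatory action of the hormone (chrX:140539528-140600659, minus strand). In the diaphragm the WT libraries were at 237, 239, 265 and 250.1 CPM and the Mtm1-/y libraries at 179, 204 and 177 CPM. The 2 groups did not overlap, as in 5.54% of genes, with a log2 fold change of -0.38 (SE 0.118, edgeR adjusted p = 0.34; DESeq2 adjusted p = 0.037). In the heart WT stood at 185, 156, 188 and 158 CPM and Mtm1-/y at 145, 143, 117 and 121 CPM. Here too the groups did not overlap, as in 2.03% of genes, and the log2 fold change was -0.39 (SE 0.109, adjusted p = 0.55). In the gastrocnemius WT was at 261, 389, 360.2 and 357 CPM and Mtm1-/y at 295, 271, 239.7 and 287 CPM, so that 1 low WT library lay within the Mtm1-/y range (-0.31 in log2, SE 0.12, adjusted p = 0.078). Without that WT library, WT 1, which was picked for its low value, the edgeR adjusted p was 0.0095. No other fit that left out 1 gastrocnemius library called Tsc22d3. In the liver WT was at 401, 403 and 365 CPM and Mtm1-/y at 307, 146, 295 and 393 CPM, the lowest of them library 2 (-0.46 in log2, SE 0.274, adjusted p = 0.97). The average over the tissues fell by 0.39 on the log2 scale (SE 0.0938, adjusted p = 0.016), to 0.763 of WT. The call held in all 30 fits that left out 1 library, with adjusted p from 0.0025 to 0.032, and was lost in the averages without the gastrocnemius (-0.41 in log2, adjusted p = 0.26), the diaphragm (-0.37, adjusted p = 0.09) or the heart (-0.39, adjusted p = 0.067).

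Ddit4 encodes REDD1, an inhibitor of mTORC1 and hence of protein synthesis, and it also responds to low oxygen, low energy and DNA damage (chr10:59949669-59951834, minus strand). In the liver it was at 68.8, 72.4 and 103 CPM in WT and at 27.1, 5.32, 47.7 and 28.4 CPM in Mtm1-/y, without overlap, as in 3.33% of genes (-1.60 in log2, SE 0.535, edgeR adjusted p = 0.97). In the gastrocnemius it was at 136, 128, 208 and 241 CPM in WT and at 77.3, 66.1, 152 and 26.3 CPM in Mtm1-/y. A single Mtm1-/y gastrocnemius, library 3, lay above the lower WT libraries, and the log2 fold change was -1.13 (SE 0.434, adjusted p = 0.076). In the diaphragm the levels were 120, 66.2, 147 and 113 CPM in WT and 58.9, 104 and 61.2 CPM in Mtm1-/y (-0.56 in log2, SE 0.329, adjusted p = 0.63). In the heart they were 145, 161, 122 and 60.5 CPM in WT and 104, 87.9, 130 and 136 CPM in Mtm1-/y, and the groups lay across each other (-0.10 in log2, SE 0.273, adjusted p = 0.89). The average fell by 0.85 on the log2 scale (SE 0.241, adjusted p = 0.039), to 0.554 of WT. This call was the least stable of the 3. It held in 12 of the 30 fits that left out 1 library, the adjusted p running from 0.015 to 0.08 and the log2 value from -0.97 to -0.77. The highest p came without Mtm1-/y diaphragm 1, the next without Mtm1-/y diaphragm 4 (0.076) and WT liver 3 (0.075). Mtm1-/y liver 2, which held the lowest Ddit4 of all libraries, also had the lowest summed macrophage and leukocyte markers of its group (41.1 against 173.9 to 207 CPM), and without it the average was -0.77 (adjusted p = 0.026).

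**Figure D3:**
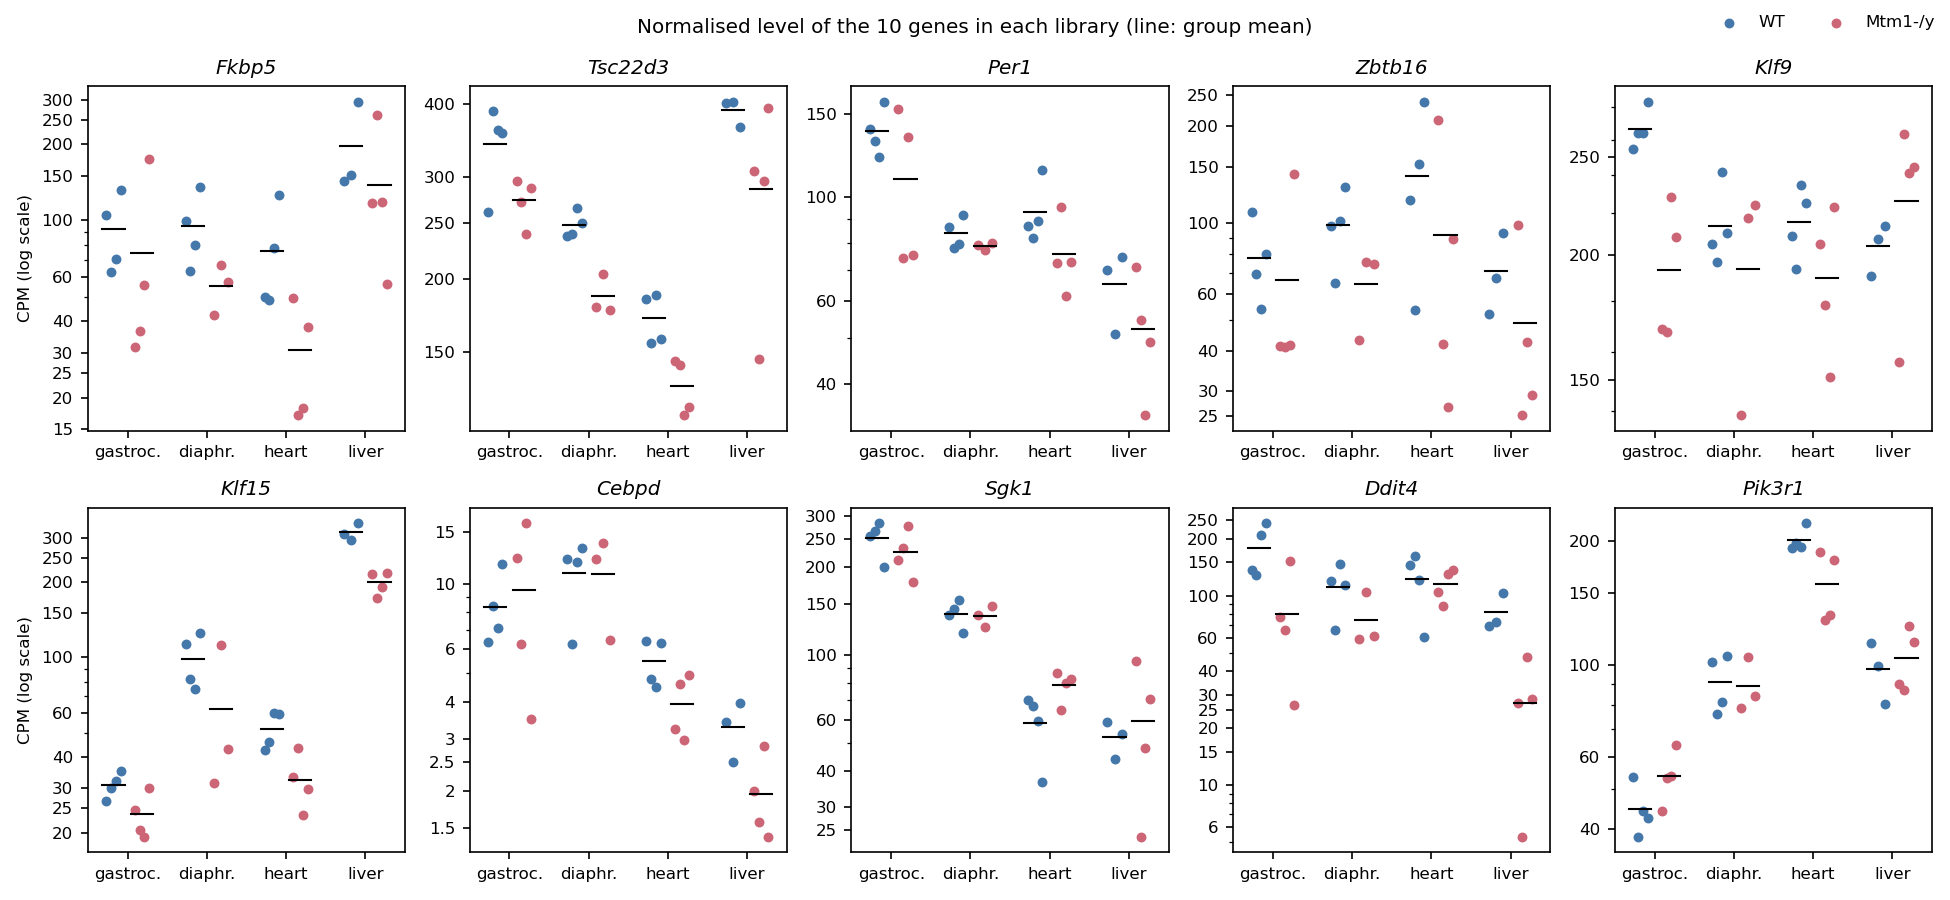
CPM of the 10 genes (y axis, log scale, a range of its own in each panel) in every library of the 4 tissues, WT in blue and Mtm1-/y in red, with a line at each group mean. The Mtm1-/y points lie below all WT points for Klf15 and Ddit4 in the liver, Tsc22d3 in the diaphragm and heart, Klf9 in the gastrocnemius and Pik3r1 in the heart.

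Klf9, a Krüppel-like factor that the hormone and thyroid hormone both induce (chr19:23141226-23168134, plus strand), was the member called within a single tissue. In the gastrocnemius it was at 254, 264, 264 and 284 CPM in WT and at 169, 168, 228 and 208 CPM in Mtm1-/y, so every Mtm1-/y library lay below every WT library, as in 16.7% of genes of this tissue. It fell by 0.45 on the log2 scale (SE 0.106, edgeR adjusted p = 0.011), less than the 1 log2 unit that 6.63% of genes passed together with the adjusted p. It passed in each of the 8 fits without 1 library, with DESeq2 (adjusted p = 0.00037) and in the fit of all 30 libraries (adjusted p = 0.045). With 14.9% of the genes of this tissue called lower, 1 member of 10 is near the background. In the liver Klf9 had a WT mean of 204 ± 11.9 CPM (SD, n = 3), beside 226 ± 47.7 CPM for Mtm1-/y (SD, n = 4), and in diaphragm and heart its groups overlapped.

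Fkbp5, an immunophilin that is among the strongest targets of the receptor and lowers its affinity for the hormone, varied widely within groups (chr17:28399094-28517527, minus strand). In the heart WT was at 49.98, 48.6, 77.5 and 126 CPM and Mtm1-/y at 49.6, 17.03, 18.2 and 37.9 CPM. The groups met only where Mtm1-/y heart 1 lay between the 2 lowest WT hearts, and the log2 fold change was -1.30 (SE 0.421, adjusted p = 0.55). In the diaphragm WT was at 99.8, 63.1, 80.2 and 136 CPM and Mtm1-/y at 42.2, 66.5 and 57.0 CPM (-0.76 in log2, SE 0.296, adjusted p = 0.43). In the liver WT ran from 143 to 294 CPM and Mtm1-/y from 55.9 to 261 CPM. In the gastrocnemius WT was at 105, 62.6, 70.7 and 132 CPM and Mtm1-/y at 31.7, 36.6, 55.5 and 175 CPM. Mtm1-/y gastrocnemius 4 was thus above every WT library while the other 3 were below every WT library. The log2 fold change was -0.29 with it (SE 0.504, adjusted p = 0.70) and -1.14 without it (adjusted p = 0.017). This library was singled out for its Fkbp5 and Zbtb16 levels, so a stronger fall of both genes without it was fixed beforehand. Without this library Fkbp5, Zbtb16 (-0.90, adjusted p = 0.012), Klf15 (-0.51, adjusted p = 0.014) and Klf9 passed in the gastrocnemius, 4 of 10 members, where 12.6% of genes were called lower. Leaving out any other gastrocnemius library gave 1 or 2 members. With all libraries Zbtb16 was at -0.22 (SE 0.414, adjusted p = 0.72).

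Zbtb16 encodes PLZF, a zinc finger repressor that the hormone strongly induces in many cells. Its 3 other Mtm1-/y gastrocnemius libraries were at 41.2 to 41.6 CPM and library 4 was at 142 CPM, against 54.0 to 109 CPM in WT. In the heart it ran from 53.6 to 239 CPM in WT and from 26.8 to 209 CPM in Mtm1-/y. It was among the most variable members within groups, with a coefficient of variation of 75.7% in Mtm1-/y gastrocnemius and 89.9% in Mtm1-/y heart. Per1, a clock repressor with a response to the hormone, was at 122 to 160 CPM in WT gastrocnemius and at 74.3, 75.4, 134 and 154 CPM in Mtm1-/y, 2 libraries below and 2 within the WT range. Its log2 fold change was -0.32 for gastrocnemius (adjusted p = 0.31), -0.07 for diaphragm (0.90), -0.31 for heart (0.55) and -0.32 for liver (0.97). Cebpd, a transcription factor of the acute response and of fat cell differentiation, was the lowest of the 10. It was at 4.49 to 6.41 CPM in WT heart and 2.97 to 4.90 CPM in Mtm1-/y heart (-0.49 in log2, SE 0.206, adjusted p = 0.55), and at 2.498 to 3.97 CPM in WT liver and 1.40 to 2.84 CPM in Mtm1-/y liver (-0.76, SE 0.296, adjusted p = 0.97). Its log2 fold change was 0.20 for gastrocnemius (adjusted p = 0.74) and 0.01 for diaphragm (adjusted p = 1).

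Sgk1, a kinase related to Akt that raises sodium transport and carries the palindrome shown above, had the highest mean effect of the 10 (0.11, adjusted p = 0.75). In the heart it was at 70.1, 66.8, 59.4 and 36.7 CPM in WT and at 86.7, 64.9, 80.2 and 82.5 CPM in Mtm1-/y (0.42 in log2, SE 0.189, adjusted p = 0.55). In the diaphragm both means were close to 137 CPM, at 138.7 ± 14.9 in WT (SD, n = 4) and 136.5 ± 11.2 in Mtm1-/y (SD, n = 3). Pik3r1, the regulatory subunit of PI3-kinase, which relays insulin signals, had effects of opposite sign in heart and gastrocnemius, neither past the test. In the heart it was at 192, 198, 194 and 221 CPM in WT and at 189, 128, 132 and 180.1 CPM in Mtm1-/y, without overlap, as in 2.03% of genes (-0.36 in log2, SE 0.14, adjusted p = 0.55). In the gastrocnemius it was at 53.6, 38.3, 44.4 and 42.5 CPM in WT and at 44.4, 53.1, 53.9 and 64.2 CPM in Mtm1-/y (0.28 in log2, SE 0.129, adjusted p = 0.13).

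Whether the genotype effect of a member differed between tissues was tested as an interaction in the fit of all 30 libraries. No member passed at an adjusted p under 0.05, where 5.25% of 18498 genes passed, and no member had an unadjusted p under 0.05, where 21.2% of genes did. limma voom with sample weights called 1 member, Klf15, where it called 27.7% of genes. The lowest unadjusted p was 0.062, for Pik3r1 (adjusted p = 0.26), followed by 0.096 for Klf9 (adjusted p = 0.33). Among the 6 pairs of tissues, the gastrocnemius and heart effects on Pik3r1 differed by 0.63 (SE 0.223, adjusted p = 0.074), beside 9.38% of genes called for that pair. Those on Klf9 in the gastrocnemius and liver differed by -0.62 (SE 0.232, adjusted p = 0.13), beside 4.99% of genes, and those on Ddit4 in the heart and liver by 1.49 (SE 0.675, adjusted p = 0.85), beside 0% of genes. Tsc22d3 had the most even effects, from -0.31 to -0.46 over the tissues (edgeR interaction test, adjusted p = 0.99).

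Several members differed between the tissues of WT mice. Of 60 contrasts (10 members in 6 pairs of tissues) in the 15 WT libraries, 22 had an adjusted p under 0.05 and more than 1 log2 unit. By pair these were 1 for gastrocnemius and diaphragm (26.8% of 17725 genes), 3 for gastrocnemius and heart (32.0%), 7 for gastrocnemius and liver (56.7%), 2 for diaphragm and heart (27.0%), 4 for diaphragm and liver (50.0%) and 5 for heart and liver (52.8%). With 10 members in each pair, none of these counts exceeds the share of all genes by more than 2 members. Klf15 had the widest range, in RPKM (CPM per kilobase of exon) 113 ± 9.05 in liver (SD, n = 3), 35.4 ± 8.67 in diaphragm, 18.6 ± 3.22 in heart and 11.1 ± 1.29 in gastrocnemius (SD, n = 4 each). Its neighbours in this order differed by 1.63 (liver and diaphragm), 0.93 (diaphragm and heart) and 0.71 (heart and gastrocnemius) on the log2 scale, with adjusted p of 2.6e-06, 5e-04 and 0.0027. The diaphragm value includes the libraries with hepatocyte RNA, and WT diaphragm 3, which held little, was at 74.7 CPM against 42.7 to 60.0 CPM in the WT hearts.

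Sgk1 ran the other way, from 51.4 ± 7.32 RPKM in gastrocnemius and 28.3 ± 3.04 in diaphragm to 11.9 ± 3.08 in heart and 10.6 ± 1.54 in liver, and heart and liver did not differ beyond their spread (0.20, SE 0.196, adjusted p = 0.36). Pik3r1 was highest in heart, at 19.98 ± 1.33 RPKM, then liver (9.70 ± 1.61) and diaphragm (9.05 ± 1.43), which did not differ beyond their spread (adjusted p = 0.75), and lowest in gastrocnemius (4.44 ± 0.639). Tsc22d3 was at 89.8 ± 4.99 RPKM in liver and 78.7 ± 12.8 in gastrocnemius, a pair within its spread (adjusted p = 0.44), then 57.1 ± 2.99 in diaphragm and 39.6 ± 3.98 in heart. Fkbp5 was highest in liver (20.7 ± 8.97 RPKM) and at 7.98 to 10.0 RPKM in the 3 muscles, where no difference passed (adjusted p = 0.45 to 0.99). WT liver 3 was at 294 CPM against 143 and 151 CPM in the other WT livers. Without WT liver 3 the difference from liver was -0.605 for gastrocnemius (edgeR adjusted p = 0.18), -0.596 for diaphragm (0.2) and -0.928 for heart (0.05), and none passed both thresholds. Ddit4 went from 102 ± 31.6 RPKM in gastrocnemius through heart (69.6 ± 25.2) and diaphragm (63.7 ± 19.2) to liver (46.4 ± 10.7), and of its 6 pairs only gastrocnemius and liver passed both thresholds (1.21, adjusted p = 0.0052). Per1 was at 24.6 ± 2.86 RPKM in gastrocnemius, 16.5 ± 2.58 in heart, 14.9 ± 1.11 in diaphragm and 11.6 ± 2.20 in liver. Zbtb16 had means of 13.4 to 26.6 RPKM and Klf9 of 42.3 to 55.4 RPKM over the tissues, the narrowest range of the 10. Cebpd was at 2.90 ± 0.828 RPKM in diaphragm, 2.24 ± 0.619 in gastrocnemius, 1.47 ± 0.27 in heart and 0.879 ± 0.198 in liver. The diaphragm values of all these members, and the counts of its pairs, include WT libraries 1, 2 and 4, which held hepatocyte markers. The part of liver RNA in them was not tested.

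**Figure D4:**
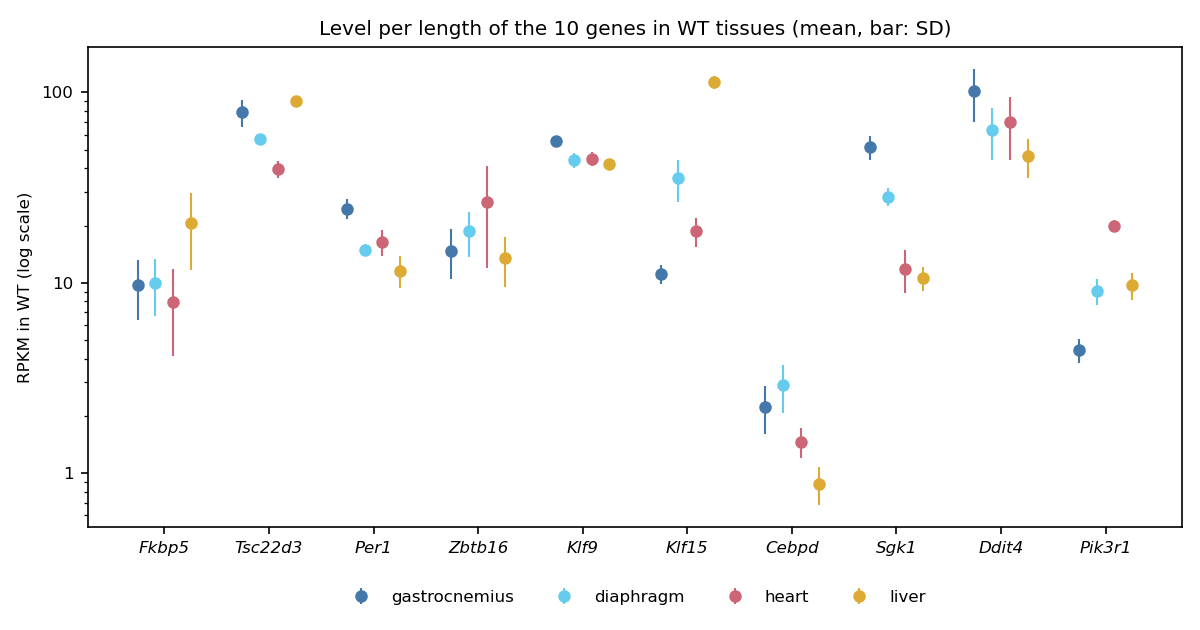
Mean level per length in WT libraries (RPKM, y axis, log scale) of the 10 genes in the 4 tissues, with bars of 1 SD (n = 4, liver n = 3). Klf15 spans the widest range, from 11.1 RPKM in gastrocnemius to 113 RPKM in liver, and Klf9 the narrowest.

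The receptor and its partners were examined beside the members. Nr3c1, the glucocorticoid receptor, was at 104 to 125 CPM in WT gastrocnemius and 76.0 to 99.4 CPM in Mtm1-/y. The groups did not overlap, as in 16.7% of genes of this tissue. Nr3c1 fell there by 0.36 on the log2 scale (SE 0.0901, adjusted p = 0.015). In the other tissues its log2 fold change was 0.05 (diaphragm, adjusted p = 0.96), 0.15 (heart, 0.55) and 0.04 (liver, 0.98), and the difference between tissues had an interaction p adjusted to 0.063. Nr3c2, the mineralocorticoid receptor, which also binds corticosterone, ranged from -0.13 to 0.34 and passed in no tissue. Of 8 chaperone genes that hold the receptor, 1 fell in the gastrocnemius, Fkbp4 (-0.45, SE 0.0789, adjusted p = 0.0027), the immunophilin that Fkbp5 competes with. Of 10 coregulator genes, 4 fell there and 0 rose, among them Ncoa1 (-0.60, adjusted p = 0.0037), Ppargc1a (-0.60, adjusted p = 0.0064) and Ep300 (-0.36, adjusted p = 0.0066). Of 5 tested genes of corticosterone metabolism and transport, 1 fell there, Hsd11b1 (-0.53, SE 0.111, adjusted p = 0.0065), which regenerates active hormone inside cells. All of these calls are falls and stand beside 14.9% of genes called lower in the gastrocnemius (29.0% in either direction). In the other tissues 0 genes of these 4 lists passed. Averaged over the tissues, 1 of these genes passed, Ncoa1 (-0.20, adjusted p = 0.04), named after its value was seen. Its effect differed between tissues (edgeR interaction test, adjusted p = 0.046), at -0.60 in gastrocnemius, -0.07 in diaphragm, 0.01 in heart and -0.12 in liver.

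Other genes that the hormone induces did not share 1 direction in the gastrocnemius. Of 24 tested, 6 rose and 5 fell, with a median log2 fold change of -0.07, where 29.0% of all genes were called and 14.9% were called lower. The lowest p values belonged to genes that rose, the metallothionein Mt2 (2.61, SE 0.361, adjusted p = 0.00085), the phospholipid-binding Anxa1 (1.1, adjusted p = 0.0014) and the cell cycle inhibitor Cdkn1a (1.60, adjusted p = 0.0018). Below 0 were 18 of 25 for diaphragm (median -0.22), 20 of 24 for heart (median -0.39) and 21 of 25 for liver (median -0.31), with 0 calls in each. Of all genes tested 51.8%, 50.3% and 48.9% were below 0 in the same order. Averaged over the tissues, 4 of 25 fell, beside 2.02% of genes, and 0 rose. These 4 are named here after their values were seen. They were Arrdc2, an arrestin-domain gene (-1.47, SE 0.163, adjusted p = 8.2e-06), Nfkbia, the inhibitor of NF-kB (-0.34, adjusted p = 0.0042), Gadd45g, a stress response gene (-0.74, adjusted p = 0.028), and the kinase Map3k6 (-0.74, adjusted p = 0.036). Arrdc2 was lower without overlap in all 4 tissues. It was at 33.1 to 91.6 CPM in Mtm1-/y against 114 to 207 CPM in WT gastrocnemius. The levels were 16.8 to 40.9 against 58.4 to 106 in diaphragm and 8.26 to 12.3 against 19.4 to 33.4 in heart. In liver they were 22.5 to 42.5 against 75.7 to 155. In the same order 16.7%, 5.54%, 2.03% and 3.33% of genes were lower without overlap. The edgeR adjusted p for Arrdc2 was 0.0052, 0.28, 0.35 and 0.49. The authors, who used DESeq2, report Arrdc2 as down-regulated in all 4 tissues, at an adjusted p under 0.05 and beyond 1 log2 unit.

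Of 9 genes of muscle wasting that the hormone induces, 5 rose and 1 fell in the gastrocnemius. The counts of this tissue given here and for the next lists stand beside 29.0% of its genes called in either direction and 14.9% called lower. The one that fell was Mstn, myostatin (-1.72, SE 0.18, adjusted p = 0.00026), and Sln, sarcolipin (4.42, adjusted p = 0.00032), and the ubiquitin ligase Fbxo30 (0.83, adjusted p = 0.00079) rose. Of the genes that the hormone represses, 5 of 7 tested rose and 0 fell in the same tissue, among them the chemokines Cxcl10 (6.03, SE 0.481, adjusted p = 8.2e-05) and Ccl2 (4.15, adjusted p = 0.00058) and the adhesion molecule Icam1 (0.92, adjusted p = 0.00081). These are also genes of inflammatory cells, whose markers rose in this tissue as given above, and the part of those cells was not tested. Of 9 genes of branched-chain amino acid breakdown and other Klf15 targets, 6 fell and 0 rose in the gastrocnemius, among them the aminotransferase Gpt2 (-1.25, adjusted p = 0.0014), the glucose transporter Slc2a4 (-0.64, adjusted p = 0.0017) and Dbt of the branched-chain ketoacid complex (-0.49, adjusted p = 0.0018). Their median was -0.45 there. It was -0.38 for diaphragm, 0.19 for heart and -0.09 for liver, with 0 calls in each of these. Averaged over the tissues, Gpt2 fell (-0.56, adjusted p = 0.0099), while Cxcl10 (2.30, adjusted p = 6.9e-06), Il1b (2.08, 0.0039), Ccl2 (1.86, 0.012) and Icam1 (0.28, 0.037) of the repressed genes and Fbxo30 (0.37, 0.003) and Trim63 (0.78, 0.049) of the wasting genes rose, beside 2.77% of genes. These too are named after their values were seen. For a pair of them the effect differed between tissues in the edgeR interaction test, Cxcl10 (adjusted p = 0.00022) and Icam1 (adjusted p = 0.0025). Icam1 was at -0.47 in the heart, where every Mtm1-/y library lay below every WT library (adjusted p = 0.55), as in 2.03% of genes. Counts were too low for a test within the tissue for Cxcl10 in the heart, Il1b in the gastrocnemius, and Ccl2 and Trim63 in the liver.

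Within groups the members did not vary as 1 unit. After the mean of each tissue and genotype was taken from log2 CPM, the correlation over the 30 libraries was positive for 30 of the 45 pairs of members, with a median r of 0.05. The highest was Fkbp5 with Zbtb16 (r = 0.68), and Sgk1 with Ddit4 (0.63), Cebpd with Ddit4 (0.58), Tsc22d3 with Sgk1 (0.57) and Per1 with Cebpd (0.51) followed. The lowest was Fkbp5 with Sgk1 (r = -0.51), and Fkbp5 was also below 0 with Tsc22d3 (-0.41) and Ddit4 (-0.41). The points share library size and composition, and these values are descriptions. In Mtm1-/y gastrocnemius 4 the deviations from the group mean were 1.59 for Fkbp5 and 1.33 for Zbtb16 but -1.35 for Ddit4 and -1.20 for Cebpd, and in Mtm1-/y liver 2 they were 1.13 for Fkbp5 but -1.97 for Ddit4 and -1.15 for Sgk1. The 5 other genes whose deviations were most like the mean of the members, among 8031 genes with at least 5 CPM in each tissue, were Tinagl1 (r = 0.78), Trp53inp1 (0.71), Pim3 (0.70), Peli2 (0.70) and Cldn5 (0.69).

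**Figure D5:**
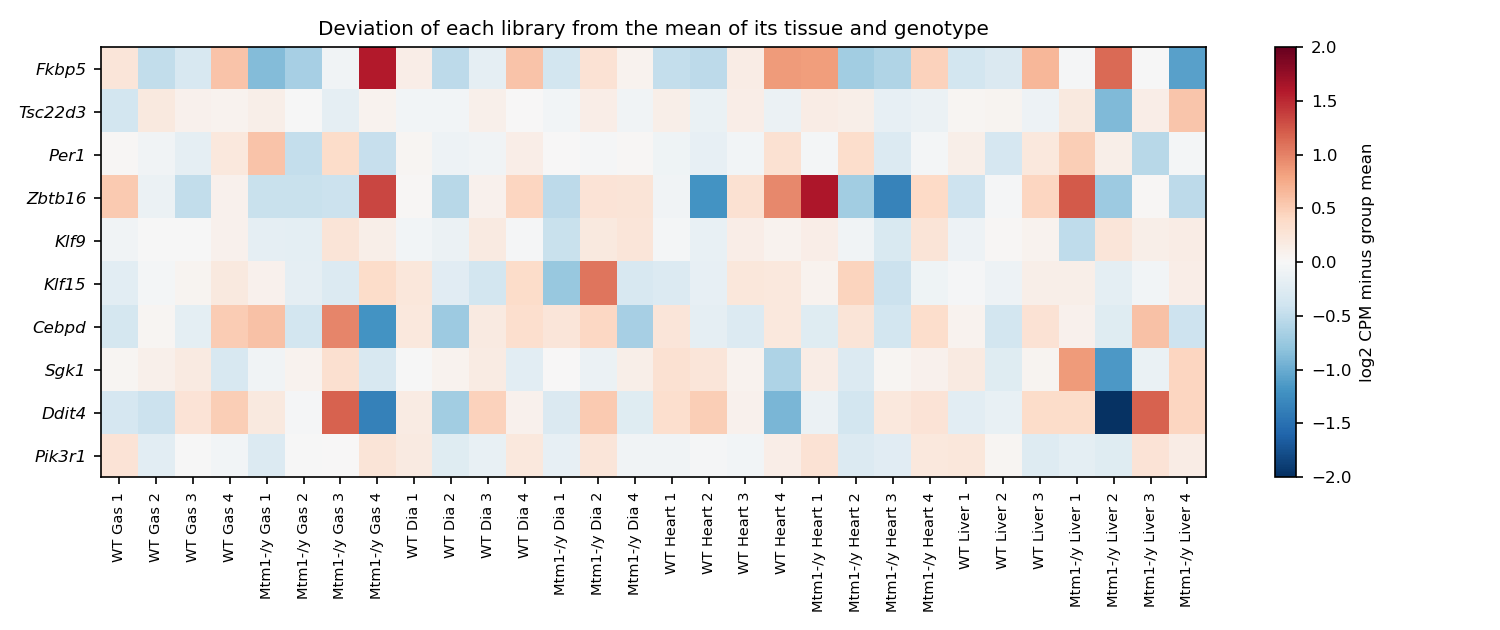
Deviation of log2 CPM from the mean of the library's tissue and genotype (colour, red above and blue below) for the 10 genes (rows) in the 30 libraries (columns). Fkbp5 and Zbtb16 are both red in Mtm1-/y gastrocnemius 4, where Ddit4 and Cebpd are blue, and Ddit4 is deepest blue in Mtm1-/y liver 2.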

How the data were processed

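Poly(A) RNA libraries of whole organs were made and sequenced by the authors, who trimmed reads with cutadapt 1.10, aligned them with STAR 2.5.3a on the mm10 assembly, and counted uniquely aligned reads per gene with HTSeq 0.6.1p1 on the Ensembl annotation of that build, in union mode. Raw counts per gene were deposited. The strand setting of the counting was not given in the sources used here. Symbols came from the GENCODE M21 annotation, which named all 36103 identifiers, and no column was left without a sample. Groups followed the sample titles, and the sources do not say which libraries share a mouse. Counts were tested with edgeR 4.0.16 (filterByExpr with a minimum count of 10, TMM, quasi-likelihood F test, R 4.3.3), each tissue alone, and in 1 fit of 30 libraries with 8 group means for the interaction and the mean effect. Benjamini-Hochberg adjustment ran over all genes tested, with a threshold of 0.05. Correlations of deviations used log2 CPM with a prior count of 2, and RPKM used exon lengths of the annotation. DESeq2 1.42.0, limma 3.58.1, other normalisation and filters, and leaving out libraries or tissues were alternatives. The script was also run on simulated counts, with the same spread for all genes and tissues and larger changes than most found here. That run does not measure how well effects of the size found here are detected. The members and gene lists were chosen with earlier results of these data known, so no list is independent evidence. All members are named, and of each other list up to 3 called genes per tissue, those of lowest p.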

Additional observations from a re-analysis of the deposited data

Results flagged for a closer look

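In 60 groups of 4 libraries, 2 held a library that stood apart from the other 3 by Dixon's criterion, which chance alone meets in about 1 in 20 groups. Both were Mtm1-/y gastrocnemius 4. Fkbp5 was at 175 CPM there and at 31.7 to 55.5 CPM in the other 3 libraries. Zbtb16 was at 142.3 CPM there and at 41.2 to 41.6 CPM in the others.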

How the results depend on the processing

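No paired reading of the replicate numbers was used: of 14 pairs of WT and Mtm1-/y libraries with the same tissue and number, 4 had a correlation of deviations over 0.1 (r from -0.589 to 0.47), and 7 of 28 libraries correlated best with their own number. Across tissues, libraries of the same genotype and number had a correlation over 0.1 in 12 of 21 WT pairs (r from -0.0494 to 0.323) and 7 of 21 Mtm1-/y pairs (r from -0.258 to 0.255). With genotype and number as a random replicate block in limma voom (consensus correlation 0.0398), the mean effect was called for 3 members, Klf15, Tsc22d3 and Ddit4, as without it in edgeR. That correlation is a single value for all genes. Fkbp5 was highest in WT 4 of gastrocnemius, diaphragm and heart (131.5, 135.8 and 126 CPM). It was lowest there in WT 2 (62.57, 63.06 and 48.56 CPM). Sgk1 was lowest in WT 4 of these tissues (201.3, 118.9 and 36.65 CPM). The Mtm1-/y libraries kept no such order for either gene. If same-numbered libraries share a mouse, mean-effect p-values of such members may be too small, which was not tested. With the number as a replicate block, 2 members passed in the gastrocnemius (Klf9, and Klf15 at an adjusted p = 0.047), where 13.2% of genes were called lower, and the block moved no other count of members by over 1.5 times. Of the counts of members, those of the heart (0) and of the WT tissues (22 contrasts) stayed within 1.5 times under every alternative run. limma voom with sample weights gave 2 members in the gastrocnemius (Klf9 and Ddit4, with 15.5% of genes lower), 1 for the interaction (Klf15, with 27.7% of genes called) and 5 for the mean effect (with 7.71% of genes lower). Without the low-count filter the mean effect had 2 (Ddit4 did not pass). DESeq2 gave 1 in the diaphragm and 1 in the liver. The mean over 3 tissues, chosen after seeing the data as was the fit without 4 diaphragm libraries, gave 0 members without the gastrocnemius, 1 without the diaphragm and 1 without the heart. Leaving out each library gave 1 to 4 members in the gastrocnemius, 2 to 4 for the mean effect, 18 to 24 WT contrasts, and 0 in each fit for the other tissues and the interaction.

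Signs turned for 9 log2 fold changes, none of which passed under any setting run. In the diaphragm Sgk1 was at 0.0147 with DESeq2 size factors, 0.0167 without the filter, 0.0153 in DESeq2, 0.0499 in limma and 0.0602 with the replicate block, and Pik3r1 at 0.00328, 0.00641 and 0.00335 in the first 3 of these. Cebpd in the diaphragm was at -0.0154 in the fit of all libraries, and Sgk1 in the liver at -0.106 with the replicate block. The mean effect on Pik3r1 was 0.0114 without the filter, 0.014 without the diaphragm, 0.116 without the heart and 0.0116 without the 4 diaphragm libraries. Over the fits without 1 library the ranges that crossed 0 were Cebpd -0.159 to 0.486 in the gastrocnemius. They were Klf9 -0.232 to 0.0828, Cebpd -0.222 to 0.276, Sgk1 -0.0669 to 0.077, Pik3r1 -0.153 to 0.0855 in the diaphragm. They were Ddit4 -0.322 to 0.0574 in the heart. They were Sgk1 -0.165 to 0.456, Pik3r1 -0.0511 to 0.199 in the liver. They were Pik3r1 -0.04 to 0.0217 for the mean effect.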

Other observations

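Of 15 clock genes, 0 passed in any tissue. Below 0 were 8 for gastrocnemius (48.2% of all genes tested), 10 for diaphragm (51.8%), 10 for heart (50.3%) and 8 for liver (48.9%). Their median log2 fold change was -0.02, -0.40, -0.48 and -0.05 in the same order. Of 12 immediate early genes, which respond to handling and activity, 5 rose and 1 fell in the gastrocnemius. Egr1 (2.52, edgeR adjusted p = 0.0014) and Junb (2.77, adjusted p = 0.0018) rose and Nr4a1 fell by 1.45 on the log2 scale (adjusted p = 0.01), beside 29.0% of genes called. In the heart 11 of the 12 were below 0 (median -0.43), beside 50.3% of all genes, and 0 passed. In the liver 8 of 10 tested were below 0 (median -0.60), beside 48.9% of all genes, and 0 passed. Of 16 insulin and PI3-kinase signalling genes, 3 rose and 2 fell in the gastrocnemius, where 29.0% of all genes were called and 14.9% called lower. Among those called were Tsc1 (-0.30, edgeR adjusted p = 0.0036), Insr (-0.40, adjusted p = 0.0051) and Akt2 (0.40, adjusted p = 0.0063).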
